A study of Mus musculus with 12 samples.

Results

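The genes described here encode the machinery that makes, stores and senses transforming growth factor β (TGF-β). They are the ligands Tgfb1, Tgfb2 and Tgfb3, the receptors Tgfbr1, Tgfbr2 and Tgfbr3, and the latent TGF-β binding proteins (LTBPs) Ltbp1, Ltbp2, Ltbp3 and Ltbp4. These 10 genes were taken by name from the 21556 genes of the count table, with no threshold on their values. RNA was sequenced from primary fibroblasts of mouse abdominal skin, with 3 libraries in each of 4 groups. The WT cells came from C57BL/6 mice and the Nox4 KO cells from B6.129-Nox4tm1Kkr/J mice, which carry a targeted disruption of the NADPH oxidase gene Nox4. In each genotype, control cells were set beside cells that received TGF-β2 at 10 ng/ml for 24 h after a day of serum starvation. Per the study's methods, both lines came from crosses of heterozygous mice, whose WT and KO offspring were then bred separately. The age of the mice behind these cultures was not given in the sources used here. The replicates are called biological, without a statement that they came from separate mice or cultures, so p-values measure the spread between these libraries, which may be technical.

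TGF-β ligands are secreted as latent complexes, in which the growth factor is held by its own propeptide. In most such complexes the propeptide is linked to an LTBP, which tethers the complex to fibrillin and fibronectin in the matrix, and integrins, proteases or mechanical pull can release the ligand. Free ligand binds TGFBR2, a serine/threonine kinase that recruits and phosphorylates TGFBR1, and TGFBR1 in turn phosphorylates SMAD2 and SMAD3. The co-receptor TGFBR3, also called betaglycan, presents TGF-β2 to TGFBR2, for which this isoform alone has low affinity. Skin fibroblasts make these proteins and respond to them, and the counts of Tgfb2 below are the transcripts of the cells' own gene, not the added protein.

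In the GENCODE annotation of GRCm38, the ligand genes lie at chr7:25687002-25705077 on the plus strand (Tgfb1), chr1:186622792-186705989 on the minus strand (Tgfb2) and chr12:86056745-86079041 on the minus strand (Tgfb3). The receptor genes lie at chr4:47353222-47414931 on the plus strand (Tgfbr1), chr9:116084293-116175360 on the minus strand (Tgfbr2) and chr5:107106570-107289629 on the minus strand (Tgfbr3). Ltbp1 lies at chr17:75005568-75392512 on the plus strand and Ltbp2 at chr12:84783212-84876532 on the minus strand. Ltbp3 lies at chr19:5740904-5758532 on the plus strand and Ltbp4 at chr7:27305136-27337692 on the minus strand. Tgfb1 and Ltbp4 are on the same chromosome as Nox4, 61.5 Mb and 59.9 Mb from it. Merged exons of Ltbp2 overlap 764 bases of the antisense gene D030025P21Rik, which has no count here. Whether counting used the strand is not stated, so reads from this stretch cannot be assigned to a strand.

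Promoter sequence is shown for genes whose RNA changed with TGF-β2 in WT fibroblasts, because SMAD3 and SMAD4 bind the core letters CAGAC in DNA. RefSeq windows of GRCm38.p6, from 250 bases before to 50 bases after the transcription start, were matched for 8 of the 10 genes, all but Tgfb3 and Tgfbr3. Tgfb1 (chr7:25686752-25687051, plus strand), Ltbp2 (chr12:84876442-84876741, minus strand) and Ltbp4 (chr7:27337563-27337862, minus strand) rose, and Tgfbr2 (chr9:116175314-116175613, minus strand) fell. Each window is written 5′ to 3′ on the strand of the gene, and capitals mark CAGAC or its reverse complement GTCTG.
Tgfb1: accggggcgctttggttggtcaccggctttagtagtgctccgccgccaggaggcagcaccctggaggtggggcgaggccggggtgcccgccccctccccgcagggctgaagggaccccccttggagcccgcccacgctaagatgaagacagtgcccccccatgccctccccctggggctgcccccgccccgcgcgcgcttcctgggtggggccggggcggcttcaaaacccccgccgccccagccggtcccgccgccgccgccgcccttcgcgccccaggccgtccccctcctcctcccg
Ltbp2: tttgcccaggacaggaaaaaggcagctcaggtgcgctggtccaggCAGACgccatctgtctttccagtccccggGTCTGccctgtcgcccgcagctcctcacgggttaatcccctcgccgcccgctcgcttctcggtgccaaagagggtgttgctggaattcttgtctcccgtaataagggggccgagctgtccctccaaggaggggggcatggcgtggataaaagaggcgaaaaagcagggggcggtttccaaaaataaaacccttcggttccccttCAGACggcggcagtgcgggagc
Ltbp4: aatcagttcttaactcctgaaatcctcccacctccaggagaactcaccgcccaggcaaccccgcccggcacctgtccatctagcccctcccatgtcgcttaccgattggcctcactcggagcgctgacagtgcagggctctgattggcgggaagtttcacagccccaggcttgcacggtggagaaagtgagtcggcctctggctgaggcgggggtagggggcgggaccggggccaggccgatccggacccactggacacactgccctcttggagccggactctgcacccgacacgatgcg
Tgfbr2: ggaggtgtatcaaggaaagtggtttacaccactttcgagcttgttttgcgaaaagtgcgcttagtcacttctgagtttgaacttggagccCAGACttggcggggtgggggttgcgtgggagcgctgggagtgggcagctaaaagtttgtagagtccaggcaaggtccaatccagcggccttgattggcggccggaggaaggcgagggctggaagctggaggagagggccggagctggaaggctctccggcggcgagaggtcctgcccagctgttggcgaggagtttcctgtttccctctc

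Searched on both strands, CAGAC occurred 3 times in the Ltbp2 window, 1 time in the Tgfbr2 window and 0 times in those of Tgfb1 and Ltbp4. The window of Tgfbr1, which was not called in either genotype, also held 0 matches, and those of the uncalled genes Tgfb2, Ltbp3 and Ltbp1 held 2, 2 and 1. Of 32851 windows of the same length, 49.6% held CAGAC. The AP-1 letters TGAGTCA were found in the Ltbp3 window alone among the 8, against 5.20% of all windows. The GC box GGGCGG, bound by Sp1 and KLF factors, occurred 6 times in the Tgfb1 window, 3 times in that of Ltbp4, 2 times each in those of Ltbp2 and Tgfbr1 and 0 times in the other 4 windows. It was present in 35.7% of all windows. In the Ltbp3 window the AP-1 match shares its last letters with a CAGAC match, and no other matches overlapped. A match describes letters only.

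Total counts per library were between 35118344 and 43796260, with a median of 39295667. Levels are given as RPKM, reads scaled to exon length and to the library's total count, which allows comparison between genes. The lowest count of any of the 10 genes in a library was 817, for Tgfbr3. All 8 fibroblast markers had a mean above 1 RPKM in every group, and none of the 6 keratinocyte or 6 Schwann cell and melanocyte markers did. Of 6 endothelial, 5 adipocyte and 5 skeletal muscle markers, no more than 1 in each list did (Kdr, Fabp4 and Acta1). The summed RPKM of the skeletal muscle list, nearly all of it Acta1, was 41.0 to 103 in control and 254 to 613 after TGF-β2, and that of the adipocyte list was 0.660 to 5.58 and 0.180 to 1.21. Nox4 itself was at 1.31 to 2.42 RPKM in WT control and at 0.636 to 1.40 RPKM in Nox4 KO control, and at 8.56 to 16.3 RPKM and 4.39 to 6.85 RPKM after TGF-β2. Reads were thus still counted on Nox4 in the KO libraries, and the counts do not say from which exons.

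Unstimulated WT fibroblasts expressed all 10 genes, over a wide range. Ltbp2, an LTBP of elastic microfibrils that does not bind latent TGF-β, was the highest at 352 ± 28.5 RPKM (SD, n = 3), which ranked 90 among 10597 genes with a mean of at least 1 RPKM. Tgfb3 followed at 111 ± 8.21 RPKM (SD, n = 3), then Ltbp3 at 50.6 ± 5.80, Tgfbr3 at 41.4 ± 4.71 and Tgfbr2 at 30.8 ± 5.71 RPKM. Ltbp1, Tgfb1, Tgfb2 and Tgfbr1 were at 22.7 ± 7.03, 20.8 ± 5.26, 17.2 ± 3.06 and 13.6 ± 2.75 RPKM, and Ltbp4 was the lowest at 4.88 ± 0.960 RPKM. In this order Ltbp3 and Tgfbr3 overlapped between libraries, as did each neighbouring pair from Tgfbr2 down to Tgfbr1. Ltbp2, Tgfb3 and Ltbp4 did not overlap with their neighbours.

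**Figure D1:**
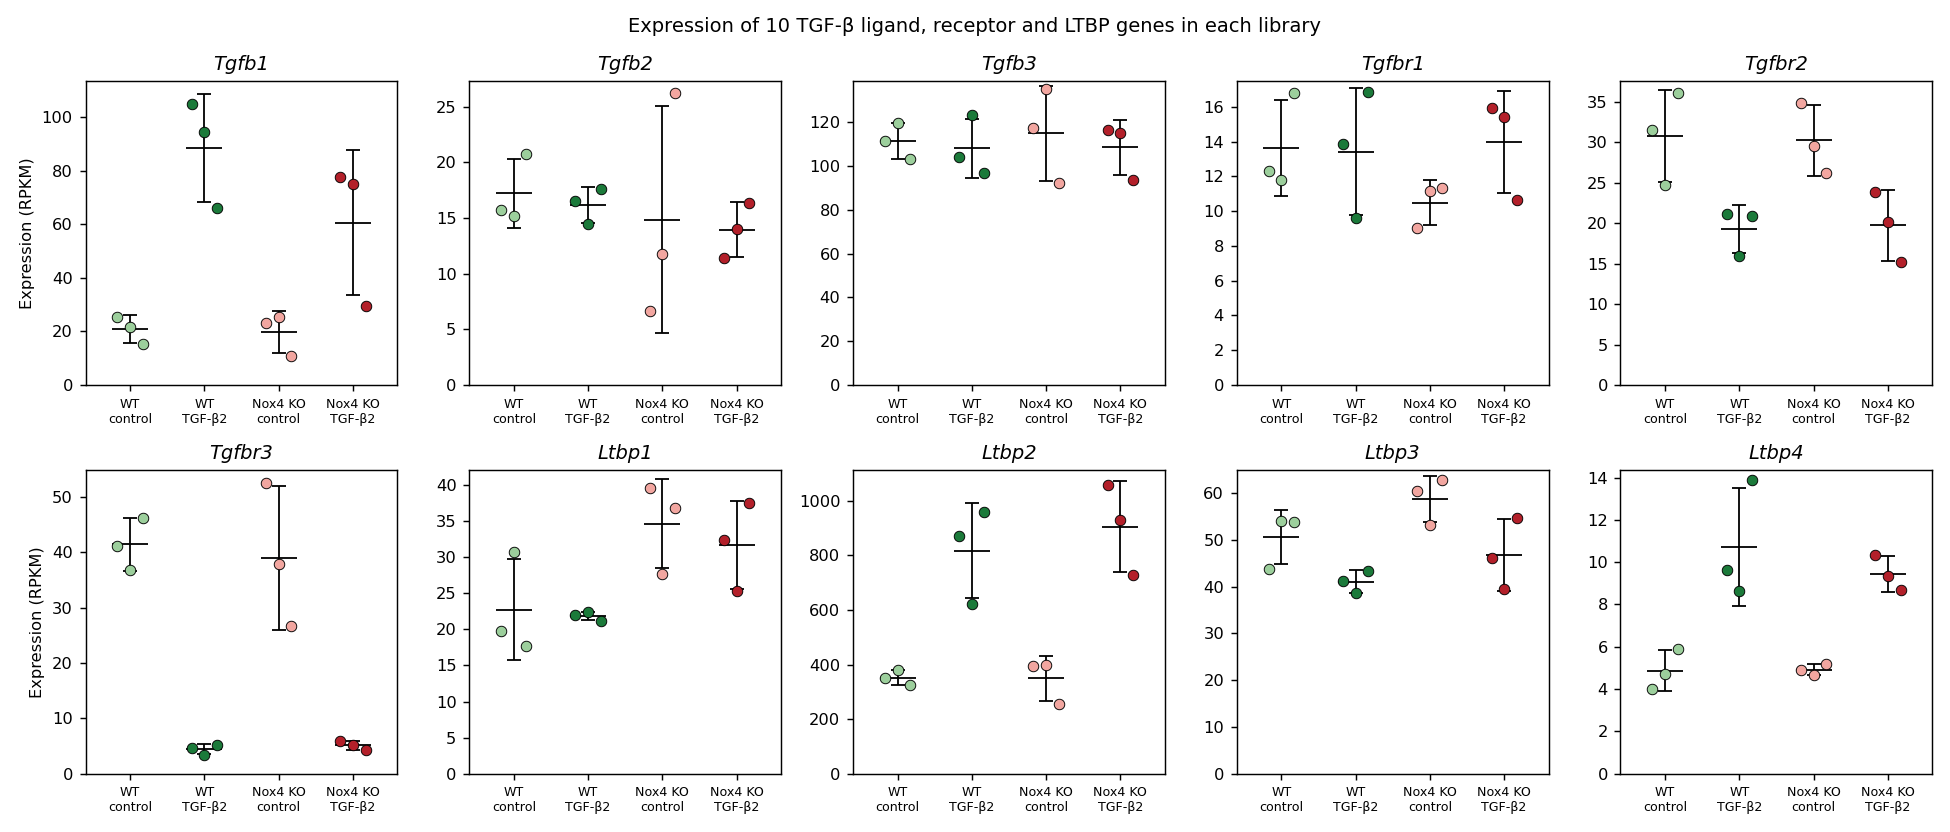
Expression in RPKM (vertical axes, linear from 0) of each of the 10 genes in the 4 groups; points are single libraries in the order of replicates 1 to 3, horizontal lines are means and bars are ± SD (n = 3). Tgfb1, Ltbp2 and Ltbp4 sit higher, and Tgfbr2 and Tgfbr3 sit lower, in every TGF-β2 library than in every control library of the same genotype. Ltbp3 sits lower in this way in WT only.

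Among the ligands, TGF-β2 raised Tgfb1, which encodes the most widely studied isoform. In WT control, Tgfb1 was at 25.6, 21.7 and 15.2 RPKM in replicates 1, 2 and 3, and after TGF-β2 it was at 105, 94.4 and 65.9 RPKM. The stimulated libraries were all far above the control libraries, and replicate 3 was the lowest in each group. The fold change was 4.35 (log2 2.12, SE 0.26), with an adjusted p = 0.00292 by edgeR's quasi-likelihood test, adjusted over 10743 genes by the Benjamini-Hochberg method. In Nox4 KO, Tgfb1 went from 23.1, 25.5 and 10.9 RPKM to 77.5, 75.0 and 29.4 RPKM. The ranges did not overlap, but stimulated replicate 3 was only slightly above the highest control library. The log2 fold change was 1.69 (SE 0.48, edgeR adjusted p = 0.0421 over 10809 genes). That call was lost on leaving out any library but stimulated replicate 3, with an edgeR adjusted p of up to 0.133. Same-numbered Nox4 KO libraries deviated together, and within these pairs the ratio of stimulated to control RPKM was 3.36, 2.94 and 2.70. With the replicate number as a block, the log2 fold change was 1.67 (SE 0.07, edgeR adjusted p = 0.000156).

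Macrophage markers also differed between libraries. Their summed RPKM, over 6 genes of which Lyz2 gave most, was highest in replicate 3 of WT (106 in control, 72.0 after TGF-β2), where Tgfb1 was lowest. In Nox4 KO it was 81.1, 29.2 and 18.0 in control replicates 1, 2 and 3, and 58.3, 20.8 and 11.6 after TGF-β2. There replicate 1 stood apart, and the sum was lowest in replicate 3, where Tgfb1 was also lowest. In both genotypes the sum was lower after TGF-β2 than in control at every replicate number. Over all libraries the sum lay between 11.6 and 106, with 3 or 4 of the 6 markers at a mean of 1 RPKM or more, while Ptprc and Fcgr1 reached no more than 0.430 and 0.0958 RPKM. The part of such cells in the level of Tgfb1 was not tested. In bulk RNA, fewer cells of a type and less RNA per cell cannot be told apart.

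The other ligand genes did not pass the test in either genotype. Tgfb3, which was the most abundant ligand transcript, was between 96.9 and 123 RPKM in the stimulated WT libraries and between 103 and 119 in the WT controls. Its log2 fold change was -0.01, with a 95% interval from -0.30 to 0.28, in WT, and 0.00, from -0.42 to 0.42, in Nox4 KO. Tgfb2, the gene of the isoform that was added to the medium, was between 14.4 and 20.7 RPKM in the WT libraries. Its log2 fold change was -0.04 in WT, with a 95% interval from -0.37 to 0.29. In Nox4 KO control it was the most variable of the 10 genes, at 6.64, 11.7 and 26.2 RPKM in replicates 1, 2 and 3, and after TGF-β2 it was at 11.4, 14.0 and 16.4 RPKM. Tgfb2 therefore had a wide interval in Nox4 KO, from -1.13 to 1.14 on the log2 scale, and moved up in 2 of the 3 pairs and down in the other.

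These changes altered the make-up of the ligand transcripts. Tgfb1 gave 13.9% ± 2.91 (SD, n = 3) of the summed ligand RPKM in WT control and 41.3% ± 5.02 after TGF-β2. In Nox4 KO its share was 13.0% ± 3.97 in control and 31.9% ± 9.35 after TGF-β2. Tgfb3 correspondingly made up 74.5% ± 1.71 and 51.0% ± 4.18 in WT, and 76.5% ± 4.55 and 60.1% ± 6.16 in Nox4 KO. It remained the largest ligand transcript in 11 of the 12 libraries, the exception being stimulated WT replicate 1, where the ratio of Tgfb1 to Tgfb3 was 1.01.

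Of the receptors, betaglycan showed the largest change of all 10 genes in both genotypes. Tgfbr3 was at 41.1, 36.9 and 46.3 RPKM in WT control and at 4.73, 3.43 and 5.21 RPKM after TGF-β2. Every stimulated library lay far below every control library. The log2 fold change was -3.17 (SE 0.19, edgeR adjusted p = 0.000383), that is 9.01-fold lower, a size at the 99.4th percentile of all genes tested in WT. In Nox4 KO, Tgfbr3 went from 52.5, 37.8 and 26.6 RPKM to 5.92, 5.18 and 4.33 RPKM. The controls differed between replicates, while the stimulated libraries lay close together. The log2 fold change was -2.84 (SE 0.28, edgeR adjusted p = 0.00312), or 7.16-fold lower, and Tgfbr3 was lower in 3 of 3 pairs.

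Tgfbr2, the ligand-binding kinase receptor, also fell in WT, by a smaller amount and at the edge of the threshold. It was at 31.5, 24.7 and 36.1 RPKM in WT control and at 21.1, 15.9 and 20.8 RPKM after TGF-β2, and the groups did not overlap. The log2 fold change was -0.63 (SE 0.17, edgeR adjusted p = 0.0431). The call was lost on leaving out any 1 of the 6 libraries (log2 from -0.74 to -0.50, edgeR adjusted p from 0.0506 to 0.158). It was also lost with library totals taken over all genes (edgeR adjusted p = 0.0532). Of 8 settings that left no library out, 7 kept the call. Among them were the replicate block (log2 -0.63, SE 0.10, edgeR adjusted p = 0.00651) and DESeq2 (adjusted p = 0.00607). In Nox4 KO, Tgfbr2 was at 34.9, 29.6 and 26.2 RPKM in control and at 23.8, 20.2 and 15.1 RPKM after TGF-β2. The ranges were again separate, and the log2 fold change of -0.53 (SE 0.19) was not called (edgeR adjusted p = 0.0860). With the replicate block it was -0.55 (SE 0.06) and was called (edgeR adjusted p = 0.00166). DESeq2 also called it, with an adjusted p = 0.0285.

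Tgfbr1, the kinase that phosphorylates SMADs, was not called in either genotype. It was at 12.3, 11.8 and 16.8 RPKM in WT control and at 13.8, 9.58 and 16.9 RPKM after TGF-β2, with overlapping ranges and a log2 fold change of 0.03 (95% interval from -0.52 to 0.57). In Nox4 KO it was at 9.02, 11.1 and 11.3 RPKM in control and at 15.9, 15.4 and 10.6 RPKM after TGF-β2. Stimulated replicate 3 stood within the range of the controls, and the log2 fold change was 0.50 (SE 0.18, edgeR adjusted p = 0.0783). Without that library the edgeR adjusted p was 0.0113, DESeq2 gave an adjusted p = 0.0290, and with the replicate block the edgeR adjusted p was 0.0513.

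The balance of the receptor transcripts moved accordingly. Tgfbr3 made up 48.4% ± 1.78 (SD, n = 3) of the summed receptor RPKM in WT control and 12.0% ± 0.145 after TGF-β2, and 48.0% ± 6.47 and 13.4% ± 0.902 in Nox4 KO. The ratio of Tgfbr3 to Tgfbr2 was between 1.02 and 1.50 in the 6 control libraries and between 0.216 and 0.286 in the 6 stimulated ones. Summed over the 3 receptors, WT libraries had 85.8 ± 12.9 RPKM in control and 37.2 ± 7.34 after TGF-β2, and Nox4 KO libraries had 79.7 ± 16.1 and 38.8 ± 7.96 RPKM.

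**Figure D2:**
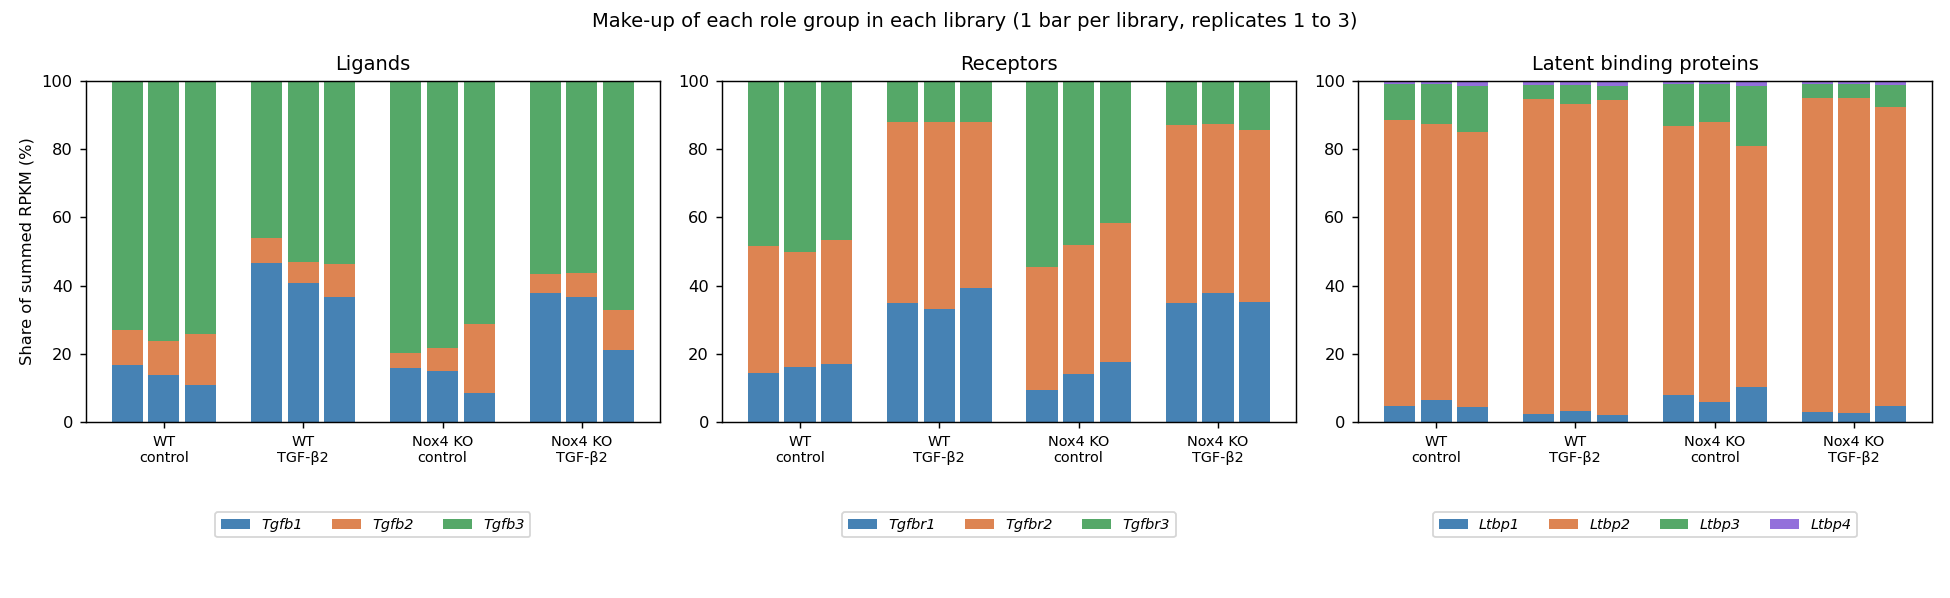
Share of the summed RPKM of each role group (vertical axes, percent) held by each gene, with 1 stacked bar per library and 3 libraries per group. Tgfb1 and Ltbp2 take a larger share and Tgfbr3 a smaller share in every TGF-β2 library than in every control library of the same genotype.

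Among the LTBPs, Ltbp2 and Ltbp4 rose in both genotypes. Ltbp2 was at 349, 382 and 325 RPKM in WT control and at 870, 623 and 959 RPKM after TGF-β2. The stimulated libraries were all higher, and replicate 2 was the lowest of them. The log2 fold change was 1.26 (SE 0.19, edgeR adjusted p = 0.00584). Nox4 KO libraries had 395, 400 and 254 RPKM in control and 1058, 931 and 727 RPKM after TGF-β2. Replicate 3 was the lowest of each KO group, the groups did not overlap, and the log2 fold change was 1.46 (SE 0.23, edgeR adjusted p = 0.00892). After TGF-β2, Ltbp2 ranked 35 of 10278 expressed genes in WT and 28 of 10349 in Nox4 KO.

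Ltbp4, which has been linked to TGF-β1 complexes and to elastic fibre assembly, was the least abundant LTBP throughout. It was at 4.01, 4.71 and 5.91 RPKM in WT control and at 9.63, 8.61 and 13.9 RPKM after TGF-β2. All stimulated libraries were above the controls, and the log2 fold change was 1.18 (SE 0.21, edgeR adjusted p = 0.0103). In Nox4 KO, values of 4.89, 4.68 and 5.19 RPKM in control stood beside 10.4, 9.34 and 8.67 RPKM after TGF-β2. The control libraries lay close together, and the log2 fold change was 1.03 (SE 0.08, edgeR adjusted p = 0.00208).

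Ltbp1 and Ltbp3, which carry latent TGF-β complexes, were not called in either genotype. Ltbp1 was at 17.7 to 30.8 RPKM in WT control and at 21.2 to 22.4 RPKM after TGF-β2, and its log2 fold change was -0.02 in WT and -0.04 in Nox4 KO. The 95% intervals were from -0.53 to 0.49 and from -0.48 to 0.40. Ltbp3 was at 43.9, 54.0 and 53.8 RPKM in WT control and at 41.3, 38.6 and 43.4 RPKM after TGF-β2. These ranges did not overlap, by a small margin, and the log2 fold change was -0.26 (SE 0.11, edgeR adjusted p = 0.139). In Nox4 KO, Ltbp3 was at 53.1 to 62.7 RPKM in control and at 39.4 to 54.7 RPKM after TGF-β2, with a log2 fold change of -0.24 (SE 0.13, edgeR adjusted p = 0.186). With the replicate block it was -0.25 (SE 0.07) and was called (edgeR adjusted p = 0.0243), and it was also called without stimulated replicate 3 (edgeR adjusted p = 0.0456).

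Over the 4 LTBPs the summed RPKM was 430 ± 36.3 (SD, n = 3) in WT control and 891 ± 179 after TGF-β2, and 448 ± 77.5 and 993 ± 160 in Nox4 KO. Ltbp2 made up 81.8% ± 1.68 of this sum in WT control and 91.6% ± 1.39 after TGF-β2, and 77.4% ± 5.94 and 90.9% ± 2.68 in Nox4 KO. The ratio of Ltbp4 to Ltbp3 was between 0.0811 and 0.110 in the control libraries and between 0.158 and 0.320 in the stimulated ones.

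Counted together, 3 of the 10 genes were higher and 2 lower after TGF-β2 in WT, and 5 were not called. Of all genes tested in WT, 22.6% were called, 10.4% higher and 12.2% lower. Past a fold of 2, Tgfb1, Tgfbr3, Ltbp2 and Ltbp4 remained, against 7.72% of all genes. For 6 of the 10 genes the ranges with and without TGF-β2 did not overlap, against 45.2% of all genes. In Nox4 KO, 3 of the 10 genes were higher and 1 lower, where 30.0% of all genes were called, 15.1% higher and 14.9% lower. With the replicate block, which also called Tgfbr2 and Ltbp3, 3 were lower, where 54.0% of all genes were called. DESeq2 called 4 of the 10 higher and 2 lower in Nox4 KO, adding Tgfbr1 and Tgfbr2, where it called 37.7% of all genes. By edgeR, Tgfb1, Tgfbr3, Ltbp2 and Ltbp4 also passed a fold of 2 in Nox4 KO, against 6.80% of all genes, and 5 of the 10 did not overlap, against 48.5%. The median log2 fold change of the 10 genes was -0.01 in WT and 0.00 in Nox4 KO, beside 0.00 and -0.01 over all genes tested.

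**Figure D3:**
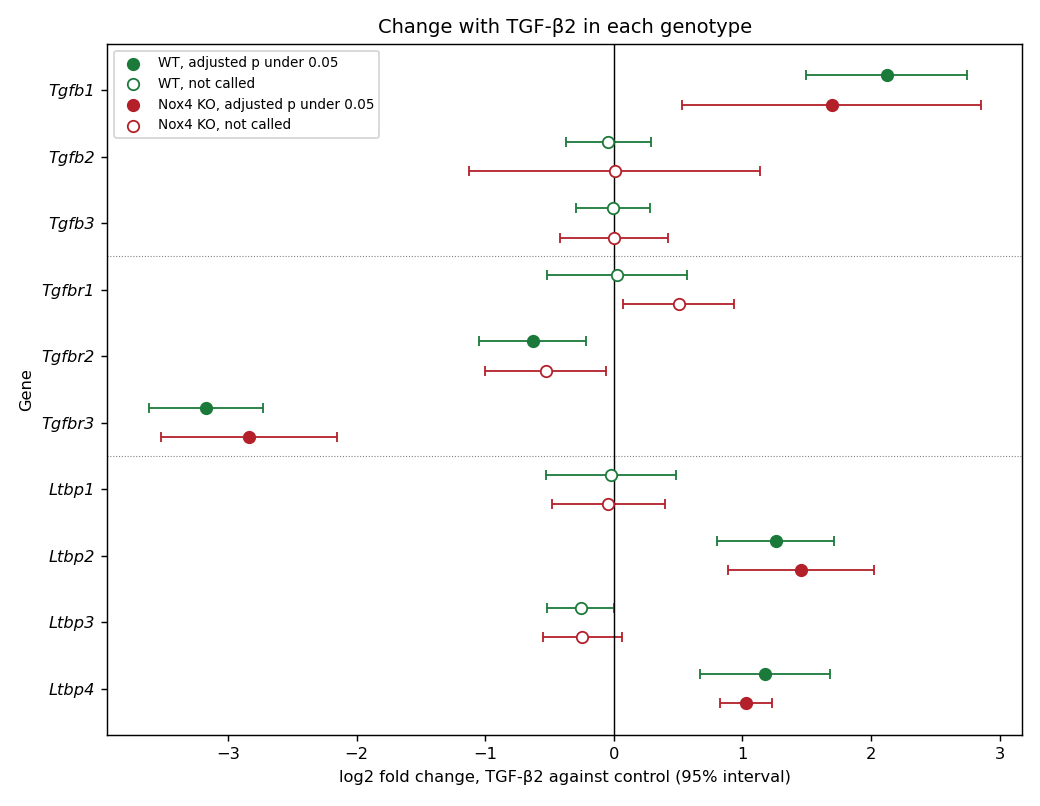
Log2 fold change of each gene with TGF-β2 against control (horizontal axis) in WT (green) and Nox4 KO (red), from edgeR's quasi-likelihood fit; bars are 95% intervals, and filled points have an adjusted p under 0.05. Tgfbr3 lies at -3.17 and -2.84 and Tgfb1 at 2.12 and 1.69, while the intervals of Tgfb3, Tgfb2 and Ltbp1 span 0 in both genotypes.

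The comparison of genotypes asked whether these genes differed between Nox4 KO and WT fibroblasts at rest. None of the 10 was called in control cells, and neither was any other gene, 0% of 10767 tested, by edgeR's quasi-likelihood test. The smallest edgeR adjusted p among the 10 was 0.828. The targeted gene Nox4, at a log2 fold change of -0.99, was not called either (edgeR adjusted p = 0.828). At an unadjusted p under 0.05, 1 of the 10 genes and 597 of all genes (5.54%) stood out, and DESeq2 called 28 genes, of which 0 were among the 10. Tgfbr1 was the gene with the unadjusted p under 0.05. It was at 9.02 to 11.3 RPKM in the Nox4 KO controls and at 11.8 to 16.8 RPKM in the WT controls, lower in every KO library, with a log2 fold change of -0.41 (SE 0.14). Of all genes, 13.6% did not overlap between these groups. Ltbp1 had the largest difference in size, 0.56 on the log2 scale (SE 0.24), at 39.5, 27.7 and 36.7 RPKM in Nox4 KO against 19.7, 30.8 and 17.7 RPKM in WT. The ranges of Ltbp1 overlapped through replicate 2 of each genotype.

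After TGF-β2, again 0 of the 10 genes and 0% of 10439 genes were called between Nox4 KO and WT by edgeR. The smallest edgeR adjusted p among the 10 was 0.838. Here 1 of the 10 genes and 337 of all genes (3.23%) had an unadjusted p under 0.05, and DESeq2 called 16 genes, with 0 of the 10 among them. That gene was Ltbp1, at 32.3, 25.2 and 37.5 RPKM in Nox4 KO and 21.9, 22.4 and 21.2 RPKM in WT. Every KO library was higher, as in one direction or the other for 10.1% of all genes, and the log2 fold change was 0.56 (SE 0.15, edgeR adjusted p = 0.838). The summed RPKM of 6 pericyte and smooth muscle markers, 4 of which had a mean of at least 1 RPKM in every group, was likewise higher in these KO libraries, at 62.0 to 80.1 against 40.1 to 59.4. Of the markers, Rgs5 reached no more than 0.475 RPKM and Kcnj8 no more than 0.328 RPKM. Their part in the level of Ltbp1 was not tested. Tgfb1 was at 29.4 to 77.5 RPKM in Nox4 KO and 65.9 to 105 in WT, with overlapping ranges and a 95% interval of the log2 fold change from -1.42 to 0.38.

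The interaction of genotype and TGF-β2 addressed whether the response itself differed. By edgeR's quasi-likelihood test over all 12 libraries, 0 of the 10 genes and 0% of 10890 genes were called, 0 of the 10 and 292 of all genes (2.68%) had an unadjusted p under 0.05, and DESeq2 called 6 genes, 0 of them among the 10. The smallest edgeR adjusted p of the 10 was 0.854, that of Tgfbr1. The log2 fold change of Tgfb1 was 0.41 lower in Nox4 KO, with a 95% interval from -1.67 to 0.84. For Tgfbr3 the difference was 0.34 (from -0.41 to 1.10), for Ltbp2 0.21 (from -0.49 to 0.91) and for Ltbp4 -0.14 (from -0.70 to 0.42). For Tgfbr2 the difference was 0.11 (from -0.51 to 0.74), and for Tgfbr1 it was 0.49 (from -0.22 to 1.20). The intervals give the differences that 3 libraries per group leave possible. In 470 further values of the 10 genes for the genotype comparisons and the interaction, from the alternative settings, none was called and the smallest adjusted p was 0.192.

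**Figure D4:**
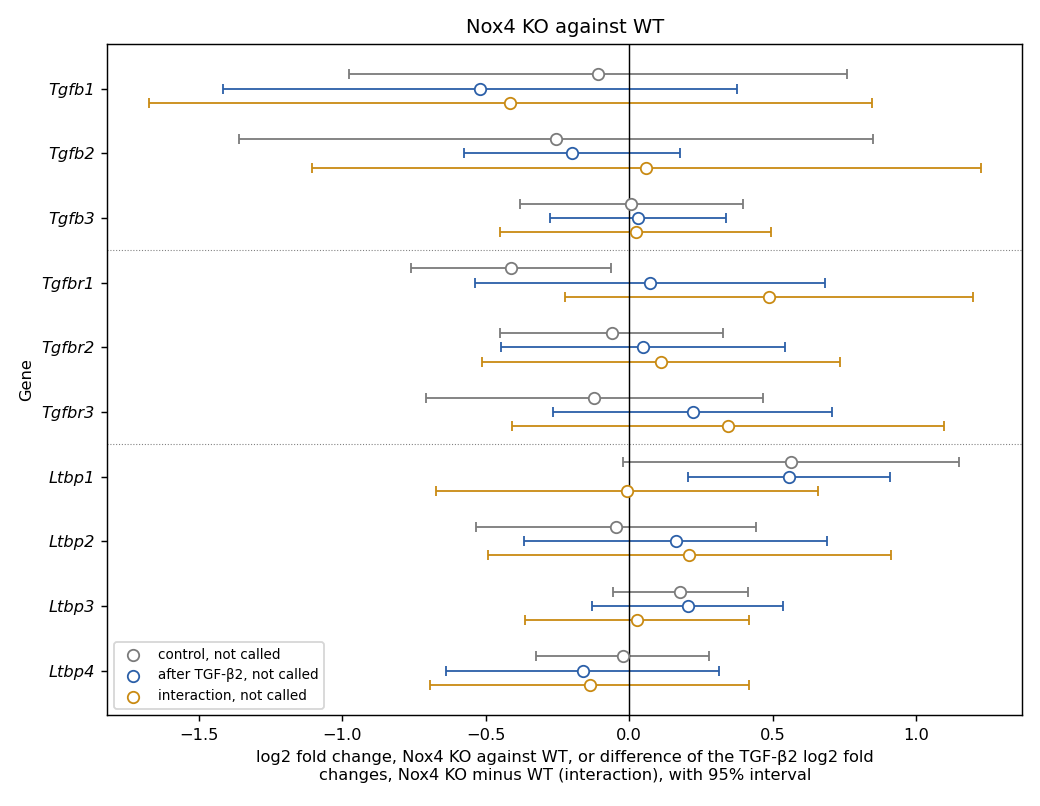
Log2 fold change of Nox4 KO against WT in control (grey) and after TGF-β2 (blue), and the difference between the TGF-β2 log2 fold changes of Nox4 KO and WT (orange), on the horizontal axis; bars are 95% intervals. No gene was called, and the interval of Tgfbr1 in control and that of Ltbp1 after TGF-β2 are the only ones that leave out 0.

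Other genes of the pathway were counted in 4 lists. Of the latency and activation list, which holds proteases, integrins and matrix proteins that store or free TGF-β, 17 of 20 genes passed the filter on low values, and 4 were higher and 4 lower after TGF-β2 in WT. The counts for Nox4 KO were 7 higher and 3 lower, and with the replicate block 8 and 5. Of all genes tested, 22.6% were called in WT, 30.0% in Nox4 KO and 54.0% in Nox4 KO with the replicate block. Mmp9, a gelatinase that can free latent TGF-β, rose by 3.57 on the log2 scale (SE 0.16, edgeR adjusted p = 0.000236) in WT and by 3.82 in Nox4 KO. Itgb3, a subunit of the αvβ3 integrin that binds latent TGF-β, and the membrane protease Mmp14 rose in WT by 1.54 and 0.92. Fbn2, which encodes the microfibril protein fibrillin-2, fell by 3.14 (SE 0.29, edgeR adjusted p = 0.00114), and the plasminogen activators Plau and Plat fell by 2.03 and 0.95. In Nox4 KO, Fbn2 was at -2.60 and Itgb3 at 1.87 without being called (edgeR adjusted p = 0.0715 and 0.114), and with the replicate block both were called (edgeR adjusted p = 0.000124 and 0.00382). The median log2 fold change of the list was 0.09 in WT and 0.27 in Nox4 KO, beside -0.003 and -0.01 over all genes tested.

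Of the 16 receptor regulators and co-receptors, all tested, 4 were higher and 3 lower in WT, 6 and 3 in Nox4 KO, and 6 and 5 in Nox4 KO with the replicate block. Over all genes tested, the shares called were 22.6%, 30.0% and 54.0%, in the same order. Pmepa1, which encodes an inhibitor of TGF-β signaling that sequesters SMADs, rose by 1.47 in WT and 1.44 in Nox4 KO. The type I receptor gene Acvr1 rose by 0.99 in WT, and Smurf2, a ubiquitin ligase that targets TGF-β receptors, by 0.61. Dab2, an adaptor of receptor endocytosis, fell by 1.32 in WT and 1.13 in Nox4 KO, and the deubiquitinase Usp11 fell by 0.94 in WT. Cd109, a co-receptor that inhibits TGF-β signaling, fell by 0.54 in WT, and in Nox4 KO it was at -0.29 without being called (edgeR adjusted p = 0.575) and was called with the replicate block (edgeR adjusted p = 0.0101). The median was 0.17 in WT and 0.08 in Nox4 KO.

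Of 13 SMADs and corepressors, 2 were higher and 3 lower in WT, 4 and 3 in Nox4 KO, and 5 and 3 in Nox4 KO with the replicate block. Beside these counts, 22.6%, 30.0% and 54.0% of all genes tested were called. The inhibitory Smad7 rose by 0.82 in WT and 0.81 in Nox4 KO, and the corepressor Tgif1 rose by 0.59 in WT. Skil, the corepressor SnoN, was at 0.74 in WT, just outside the threshold (edgeR adjusted p = 0.0502), and rose by 1.21 in Nox4 KO. Smad9, Smad6 and Smad3 fell by 1.69, 1.20 and 1.07 in WT, and Smad3, a substrate of TGFBR1, fell by 0.73 in Nox4 KO. The median was -0.03 in WT and -0.04 in Nox4 KO.

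Of 12 textbook TGF-β target genes, 4 were higher and 1 lower in each genotype, and 6 and 2 in Nox4 KO with the replicate block. All genes tested were called at 22.6% in WT, 30.0% in Nox4 KO and 54.0% in Nox4 KO with the block. Nox4, which encodes the NADPH oxidase, was higher after TGF-β2 by 2.83 on the log2 scale in WT and by 2.65 in Nox4 KO, and Ccn2, a matricellular growth factor, by 1.57 and 1.59. The lower gene was Col3a1, a fibrillar collagen chain, which fell by 1.19 in WT and 0.92 in Nox4 KO. The median was 0.03 in WT and 0.13 in Nox4 KO. Of the genes in the 4 lists, none was called between the genotypes or in the interaction by edgeR's quasi-likelihood test.

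**Figure D5:**
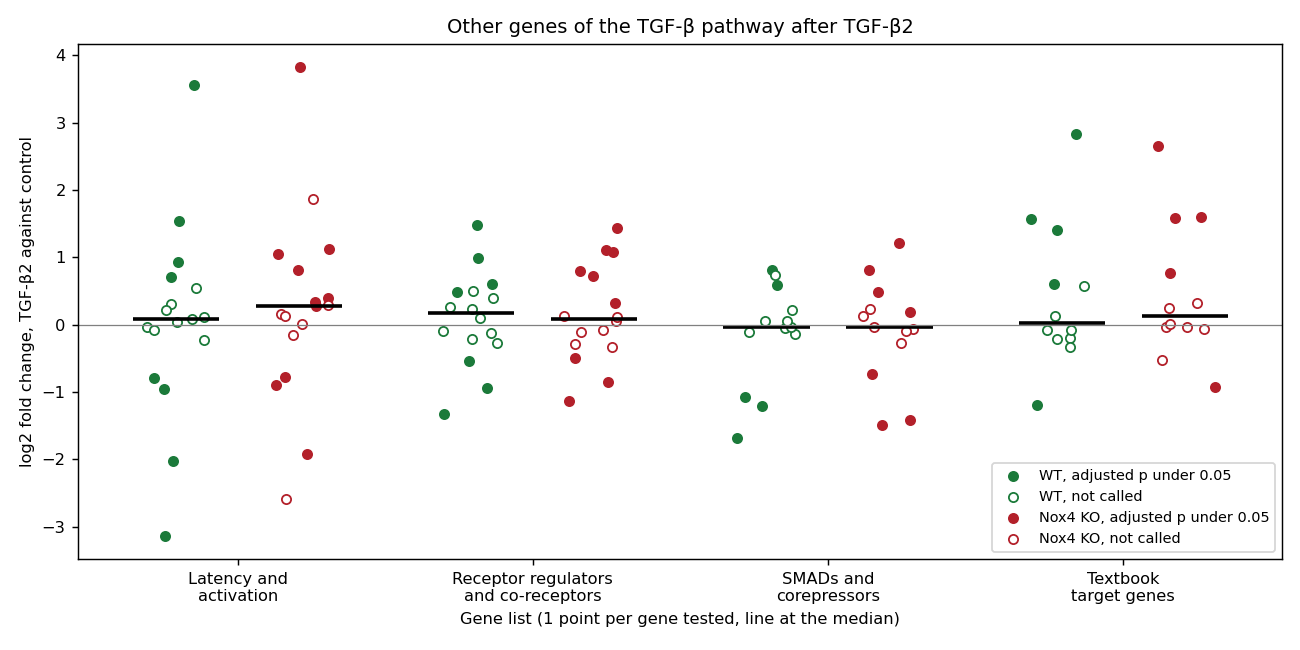
Log2 fold change with TGF-β2 against control (vertical axis) of each tested gene of the 4 pathway lists in WT (green) and Nox4 KO (red); black lines are list medians, and filled points have an adjusted p under 0.05. Called genes lie on both sides of 0 in every list, and the medians stay between -0.04 and 0.27.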

How the data were processed

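RNA from 12 libraries of primary mouse skin fibroblasts, 3 per group, was analysed, with groups and replicate numbers taken from the sample labels. The authors aligned single-end reads with STAR 2.4 to the GRCm38 genome, kept only uniquely located reads and assigned them to the protein-coding exons of each gene, merged over isoforms, with featureCounts 1.4.6. The deposited values are raw counts without normalization. Dropping reads with several locations lowers the counts of genes with near-identical copies.

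Symbols, positions and exon lengths came from GENCODE for GRCm38, which matched all 21556 genes (lengths from protein-coding transcripts for 21099 and from all transcripts for 457). RPKM used the total count of each library. Genes with a mean of at least 1 RPKM in at least 1 group compared were tested with edgeR 4.0.16 (R 4.3.3, limma 3.58.1), using the quasi-likelihood test after TMM normalization, library sizes recomputed over the tested genes and Benjamini-Hochberg adjustment, and called at an adjusted p under 0.05 at any fold. All 10 genes were tested in every comparison. SE was derived from the F statistic. The procedure was tested on simulated data.

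The 10 genes, the pathway and marker lists, and the naming rule (all 10 genes, up to 3 rises and 3 falls per pathway list in WT among genes called in either genotype, and Nox4) were chosen with earlier results of these data known. A gene that the rule names among the target genes is not reported here. Replicates were not duplicates of one another (chi-square per gene from 15.1 to 154). In Nox4 KO, control and stimulated libraries with the same number correlated in their deviations from group means (0.763, 0.688 and 0.741), so the numbers were taken to pair them. This pairing comes from the check, not from the labels. Alternatives were DESeq2 1.42.0, RLE and upper-quartile factors, no filter, all 12 libraries in the fit, a fold limit of 2, the replicate block, each library left out in turn, and TMM-scaled RPKM. Library totals of all genes and TMM factors from all genes were added after seeing the data.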

Additional observations from a re-analysis of the deposited data

How the results depend on the processing

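Of 750 alternative log2 fold changes of the 10 genes, 732 stayed on the same side of the threshold, 12 lost and 6 gained significance, and none that was called changed sign. Among the 732, 86 changed sign without being called in either setting, none of them above 0.344 in size. A fold limit of 2 left 829 genes called with TGF-β2 in WT and 735 in Nox4 KO, in place of 2425 and 3243, and 1 lower gene of the 10 in WT. Leaving out each library gave 1232 to 3399 genes in WT and 1134 to 3511 in Nox4 KO. The WT count fell by over 1.5 times without control replicate 1, 2 or 3 or stimulated replicate 1 (1325, 1376, 1437 and 1232), and the Nox4 KO count without control replicate 1 or 2 or stimulated replicate 1 or 2 (1616, 1783, 1779 and 1134). It gave 1 lower gene of the 10 in WT, and 1 to 2 lower and 2 to 4 higher in Nox4 KO. Library totals of all genes gave 1 lower gene of the 10 in WT. DESeq2 gave 4 higher and 2 lower genes of the 10 in Nox4 KO and called 4070 genes there, and it called 28 genes between the genotypes in control, 16 after TGF-β2 and 6 in the interaction. With all 12 libraries in the fit, 1 gene was called between the genotypes in control, and leaving out each library gave 0 to 1 both in control (1 without Nox4 KO replicate 2) and after TGF-β2 (1 without Nox4 KO replicate 1). The causes of these shifts were not tested.

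With the replicate block, 5842 genes were called in Nox4 KO and 3 of the 10 were lower. The block called 3080 genes in WT, where same-numbered libraries correlated at 0.0619, 0.415 and 0.525 and 2 of the 3 pairs correlated best with their own number. In the labels those libraries share only a number, as do libraries of the 2 genotypes. Between the genotypes, same-numbered libraries correlated at -0.180 to 0.314, and the block called 0 genes. Beyond Tgfbr2 and Ltbp3 in Nox4 KO, it changed the call of none of the 10 genes. Upper-quartile factors gave 1216 higher and 1969 lower genes in Nox4 KO (38.2% higher), in place of 1637 and 1606 (50.5%). TMM scaling moved 1 of 40 group means by more than the SD, that of Ltbp1 in stimulated WT (21.8 to 22.6 RPKM). With 3 libraries per group, small differences between the genotypes were below what could be detected, and larger ones could be missed too. The targeted gene Nox4 was at -0.99 in control and -1.17 after TGF-β2 on the log2 scale, Nox4 KO against WT. It was called in neither comparison (edgeR adjusted p = 0.828 and 0.838).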
